A study of Mus musculus with 15 samples.

Results

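Interferon-stimulated genes are switched on when cells sense interferon, and many of them encode proteins that block viral replication. The list held 45 mouse genes, picked by name: 4 transcription factors, 11 sensors of RNA or DNA, 13 antiviral effectors, 7 genes of the ISG15, ubiquitin and ADP-ribosylation systems, 7 interferon-inducible GTPases and 3 others. All 45 had a value among the 18078 genes analysed, and 42 reached 1 TPM in at least 3 libraries and were tested. TPM is a transcript level scaled to gene length and to the library's total.

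The cells were primary lung fibroblasts from wild-type BALB/cJ mice, a strain often used in studies of allergic airway disease. Total RNA was sequenced 20 h after stimulation, in 5 groups of 3 libraries. The groups were untreated cells, IL-33, IL-33+IL-17A, IL-33+IL-13, and IL-33+IL-13+IL-17A, the recombinant interleukins being given together. IL-33 is an alarm signal released by damaged cells, IL-13 the main type 2 interleukin of allergic airways, and IL-17A the leading interleukin of type 3 responses. No group received interferon, and the labels give no animal, culture or pool for any library, so each p-value reflects how much libraries of a group varied, and that variation may be technical.

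The deposited TPM used the full span of each gene, introns included, as its length, so a level compares genes per kilobase of span. Low values became whole reads when multiplied by that span (89.0% to 90.5% of the values checked in each library, within 0.03 of a read), which put the depth at 10553000 to 15120000 reads a library (rounded). In 6 libraries the 13 mitochondrially encoded protein genes took 3.5% to 3.87% of TPM, and in the other 9 they took 4.77% to 6.13%. The low side held all 3 IL-33+IL-13 libraries, replicates 2 and 3 of IL-33+IL-17A and replicate 1 of IL-33+IL-13+IL-17A. No label names a batch, and this split is called the low and the high mitochondrial share below.

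The RNA carried markers of more than one cell type. All 10 fibroblast markers were present, and their summed level was 14606 to 16062 TPM in untreated libraries, against 9791 to 10296 TPM with all 3 interleukins. All 14 macrophage markers averaged at least 10 TPM, led by the lysozyme gene Lyz2 at 9362 TPM. Their sum was 18696 to 19180 TPM in untreated libraries, 17789 to 17943 with IL-33, 17382 to 18483 with IL-33+IL-17A, 17097 to 17253 with IL-33+IL-13 and 16223 to 16889 with all 3 interleukins. Of 9 dendritic cell markers 6 had a value, and 1 reached 10 TPM, Bst2, which is itself on the list. Lymphocyte, epithelial and endothelial markers summed to at most 11.1, 7.69 and 7.69 TPM in any library. Of 6 genes listed for neutrophils and mast cells 2 had a value, led by Mcpt8 with a mean of 122 TPM. These 2 genes summed to 100 to 107 TPM in untreated libraries and to 245 to 304 TPM with all 3 interleukins. Which cells held them was not tested. The part of these cell types in the results was not tested. In such bulk RNA, fewer cells of a type and less RNA per cell cannot be told apart.

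Type I interferons bind a receptor whose kinases activate the complex ISGF3, of which STAT2 and IRF9 are subunits and which binds the interferon-stimulated response element, or ISRE. Type II interferon acts through the gamma-activated site, or GAS. IRF7 amplifies the production of type I interferon, and SOCS1 and SOCS3 restrain receptor signalling. Many cell types keep a low level of this programme without infection, through tonic interferon signalling.

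The promoters of the members were read from RefSeq (GRCm38.p6, the C57BL/6J reference, while the cells were BALB/cJ), as windows of 300 bases with 250 before the gene start and 50 after it. A window was matched for 33 of the 45 members. The ISRE core was searched as TTTCNNTTTC on both strands, and lay in a window of 19 of these 33 members, 57.6%, against 3.99% of all genes with a window. The GAS core, TTCNNNGAA, lay in 11 of 33 (33.3%, against 9.55% of all genes). A STAT6 core, TTCNNNNGAA, lay in 7 of 33 (21.2%, against 8.01%), and an NF-kB core, GGGNNTTTCC, in 1 of 33 (3.03%, against 1.89%). The stretches below are those of 6 members whose levels are described in full, chosen because an ISRE core lies before the gene start and outside the gene's span. They are written 5′ to 3′ on the strand of the gene, with the ISRE cores in capitals, a core on the other strand reading as a pair of GAAA blocks.
Ifit3: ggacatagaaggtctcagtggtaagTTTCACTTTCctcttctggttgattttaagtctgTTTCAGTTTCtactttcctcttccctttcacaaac
Ifit1: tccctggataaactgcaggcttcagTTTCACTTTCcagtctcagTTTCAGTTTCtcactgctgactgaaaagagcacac
Rsad2: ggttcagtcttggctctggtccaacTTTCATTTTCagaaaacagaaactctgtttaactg
Oas3: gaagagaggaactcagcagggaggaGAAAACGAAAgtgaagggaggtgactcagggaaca
Isg15: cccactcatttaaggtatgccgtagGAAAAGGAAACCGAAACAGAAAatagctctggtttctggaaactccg
Gbp7: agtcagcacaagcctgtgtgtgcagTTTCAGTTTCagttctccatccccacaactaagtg
These stretches lie at chr19:34583348-34583441 (plus strand) for Ifit3, chr19:34640760-34640838 (plus strand) for Ifit1, chr12:26456538-26456597 (minus strand) for Rsad2, chr5:120777700-120777759 (minus strand) for Oas3, chr4:156200850-156200921 (minus strand) for Isg15 and chr3:142530258-142530317 (plus strand) for Gbp7. Ifit3 and Ifit1 hold 2 cores each and Isg15 holds 3 that overlap. The first 5 genes had lower means in all 4 treated groups than in untreated cells, whereas Gbp7 had higher ones. Among the members with a window, those with an ISRE core had a median log2 change of -0.69 with IL-33+IL-13 against untreated cells (15 of 19 lower, 2 higher), and those without one had -0.67 (12 of 14 lower). Those with a GAS core had a median of -0.43 (6 of 11 lower, 2 higher), and those without one had -0.94 (21 of 22 lower). In this comparison 35.1% of all tested genes were called lower and 14.5% higher. A match is a description of letters, and binding was not measured.

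For most members, levels were highest in untreated cells and lowest in cells given IL-13. The group mean was highest in untreated cells for 32 of the 42 tested members, and it was lowest in IL-33+IL-13 for 18 and in IL-33+IL-13+IL-17A for 19. The IL-33+IL-13 mean lay below the IL-33+IL-17A mean for 36 of 42. No share of all tested genes is set beside these counts of group means. The median log2 change over all tested genes was itself -0.05 to -0.12 in the treated groups against untreated cells. For 14 members (Ifi44, Ifit1, Ifit3, Isg20, Oasl2, Rsad2, Irf7, Xaf1, Parp14, Cmpk2, Rtp4, Gbp2, Gbp3 and Irgm1) all 6 libraries with IL-13 lay below all 9 without it, which 5.47% of all tested genes did. The plot of members by library shows these levels relative to the untreated mean.

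**Figure D1:**
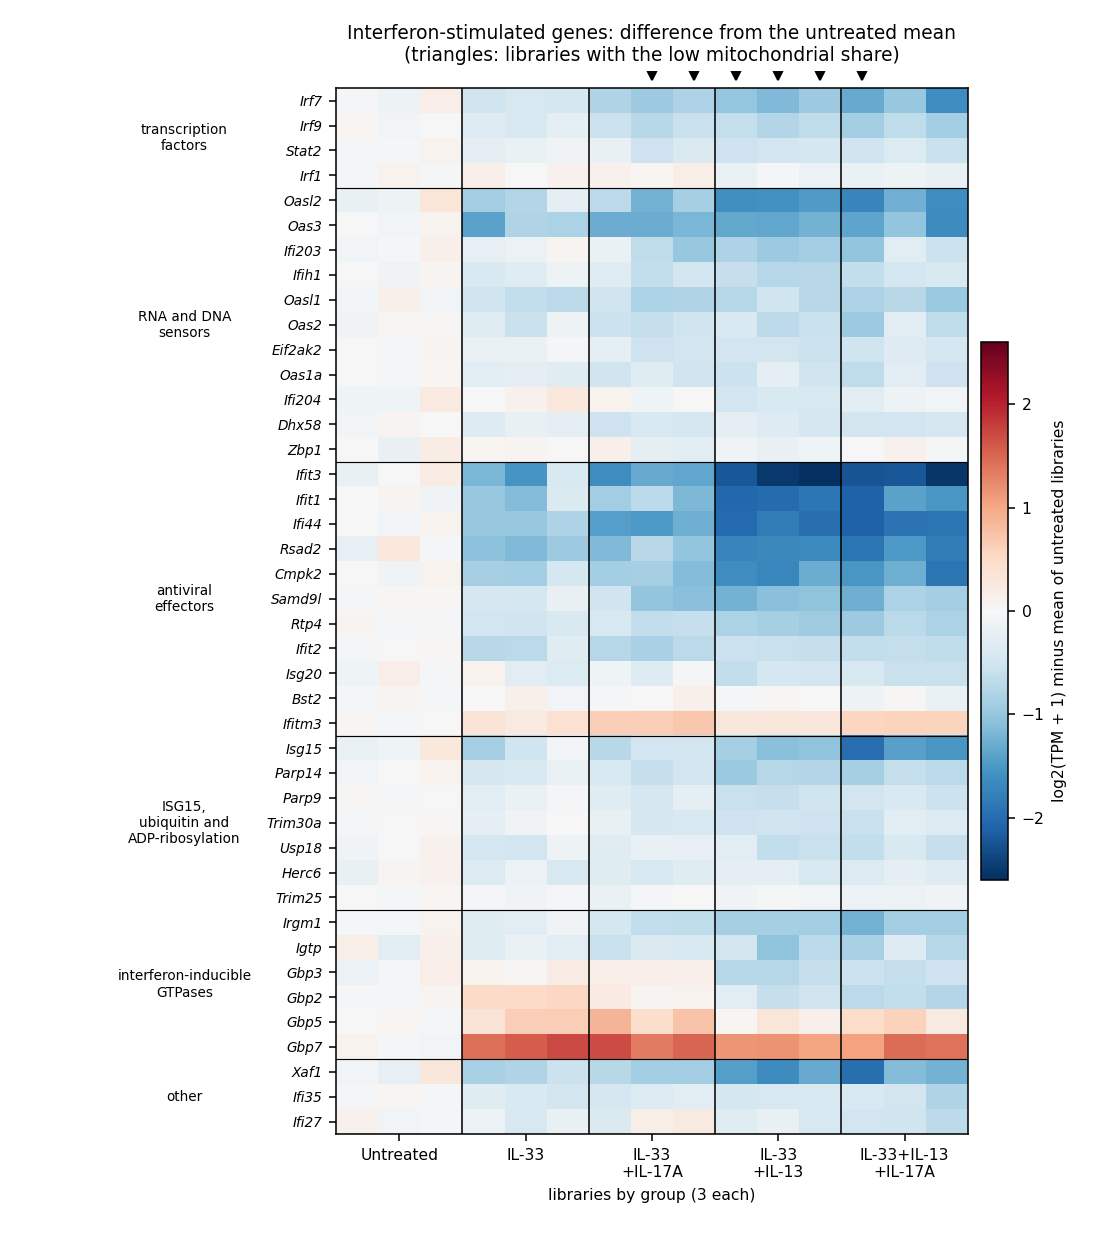
Heat map of the 42 tested members (rows, by role) in 15 libraries (columns, 3 per group); colour is log2(TPM + 1) minus the mean of the 3 untreated libraries, and triangles mark the 6 libraries with the low mitochondrial share. Most rows are blue from IL-33 onward and darkest in the 6 libraries with IL-13, while Gbp7, Gbp5 and Ifitm3 are red.

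Each treated group was compared with the same 3 untreated libraries, so the 4 comparisons are not independent. Genes were called at a limma adjusted p under 0.05, adjusted over all 13887 tested genes, and changes are differences of log2(TPM + 1), which understate the change of genes near or under 1 TPM. With IL-33 alone, 15 of 42 members were lower and 4 higher, against 8.28% and 5.92% of all tested genes. With IL-33+IL-17A, 29 were lower and 3 higher (all tested genes: 27.0% and 10.7%). With IL-33+IL-13, 34 were lower and 2 higher (35.1% and 14.5%). With all 3 interleukins, 36 were lower and 3 higher (30.1% and 12.6%). The members' median log2 change was -0.28, -0.46, -0.57 and -0.60 in these comparisons, beside -0.05, -0.09, -0.12 and -0.10 over all tested genes. Median-ratio scaling moved the median of all genes to 0.01 in the latter 3 comparisons and gave members' medians of -0.23, -0.34, -0.45 and -0.49; no called member changed sign in any comparison. That scaling turned the split over all genes: 14 members were then lower and 4 higher with IL-33 (all tested genes: 6.14% and 7.99%), 24 and 6 with IL-33+IL-17A (15.7% and 17.8%), 33 and 2 with IL-33+IL-13 (21.8% and 24.4%) and 33 and 3 with all 3 (18.5% and 20.4%).

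**Figure D2:**
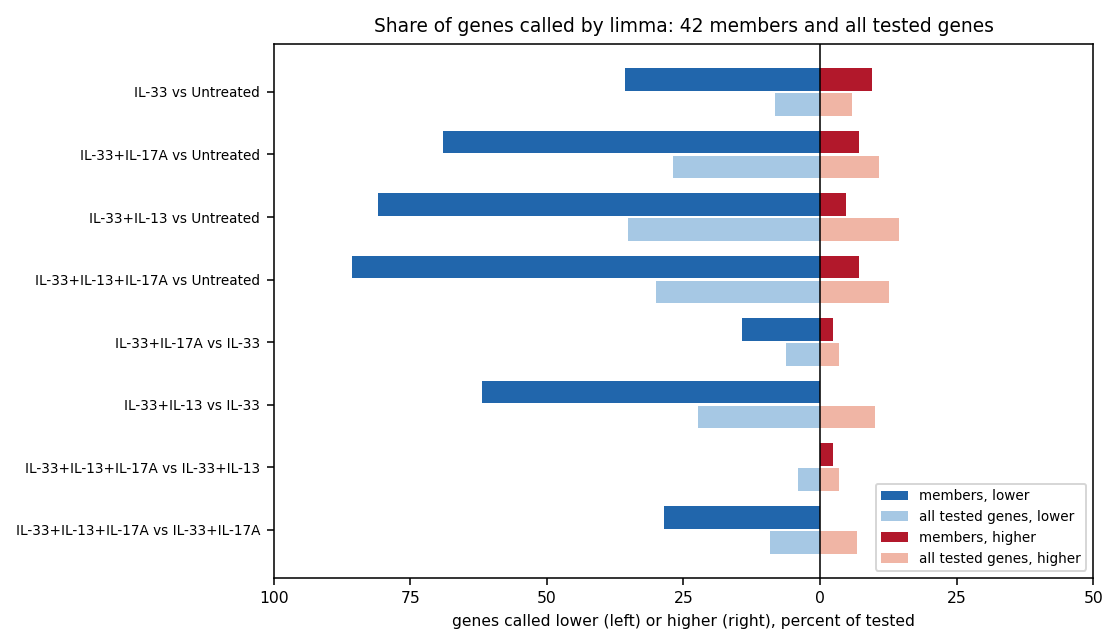
Percent of genes that limma called lower (left) or higher (right) in 8 comparisons, for the 42 members (dark bars) and for all 13887 tested genes (pale bars). Members called lower range from 15 of 42 with IL-33 to 36 of 42 with all 3 interleukins, all against untreated cells.

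The shift was seen in each library. The median member lay 0.32, 0.31 and 0.18 below the untreated mean in the IL-33 libraries, 0.41, 0.52 and 0.48 below it with IL-33+IL-17A, 0.57, 0.62 and 0.60 below it with IL-33+IL-13 and 0.65, 0.50 and 0.66 below it with all 3 interleukins, on the log2 scale. The untreated libraries themselves had medians of -0.03, -0.03 and 0.06. IL-33 replicate 3 was nearest to the untreated libraries among all treated ones. Among libraries with the high mitochondrial share alone, the members called lower and higher against untreated cells were 14 and 3 with IL-33 (all tested genes: 7.97% and 5.72%), 10 and 3 with IL-33+IL-17A (9.11% and 6.29%) and 32 and 2 with all 3 interleukins (24.4% and 11.7%). IL-33+IL-17A then has 1 library, assumed to vary like the other groups, and IL-33+IL-13 has none. With a term for the low share they were 19 and 4 with IL-33 (12% and 7.3%), 21 and 3 with IL-33+IL-17A (15.9% and 8.96%), 27 and 2 with IL-33+IL-13 (16.3% and 9.27%) and 34 and 3 with all 3 (29.4% and 13.6%).

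The transcription factors of ISGF3 and IRF7 were lower with the interleukins, and Irf1 moved little. Irf7 (chr7:141262706-141266482, mm10 as all coordinates of genes here), the amplifier of type I interferon, stood at 32.1, 29.4 and 36.6 TPM in the untreated libraries, at 22.3, 24.2 and 23.6 with IL-33, at 18.6, 16.4 and 18.2 with IL-33+IL-17A, at 15.7, 14.2 and 16.4 with IL-33+IL-13 and at 12.6, 15.9 and 9.91 with all 3 interleukins. Its untreated libraries lay above all others, the IL-33 libraries came next, and those of the other 3 groups lay lower, close to one another. The log2 change from untreated cells was -0.46 ± 0.13 (SE, adjusted p = 0.0304) with IL-33, -0.84 ± 0.13 (SE, adjusted p = 2.8e-04) with IL-33+IL-17A, -1.03 ± 0.13 (SE, adjusted p = 4.4e-05) with IL-33+IL-13 and -1.31 ± 0.13 (SE, adjusted p = 4.5e-06) with all 3. The first of these calls was lost when any 1 of the 6 libraries other than untreated replicate 2 was left out (adjusted p 0.0643 to 0.123). It was also lost in the limma fit of high-share libraries only (adjusted p = 0.11). In that fit, with 1 library of IL-33+IL-17A, the Irf7 change in that group was -0.78 and the call was not kept. Reads of the overlapping opposite-strand gene Phrf1 cannot be told apart here, since the strand used in counting is not given.

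Irf9, the DNA-binding partner in ISGF3, stood at 75.2, 68.8 and 72.6 TPM in the untreated libraries, at 57, 54 and 59.9 with IL-33, at 48.4, 43.3 and 47.7 with IL-33+IL-17A, at 46.3, 42 and 45.3 with IL-33+IL-13 and at 38.9, 45 and 38.6 with all 3 interleukins. The untreated libraries were highest, the IL-33 libraries lay below them with no overlap, and the remaining 9 libraries lay between 38.6 and 48.4 TPM, under all IL-33 libraries. The log2 changes from untreated cells were -0.34 ± 0.07 (SE, adjusted p = 0.0049), -0.63 ± 0.07 (SE, adjusted p = 1.6e-05), -0.68 ± 0.07 (SE, adjusted p = 6.4e-06) and -0.81 ± 0.07 (SE, adjusted p = 1.0e-06), in the same order of groups. Part of its span is shared with Rnf31 on the same strand. Stat2, the other ISGF3 subunit on the list, stood at 34.6, 34.9 and 38 TPM in the untreated libraries, at 30.3, 31.8 and 33.6 with IL-33, at 31, 24.5 and 27.3 with IL-33+IL-17A, at 24.4, 25.3 and 25.9 with IL-33+IL-13 and at 24.9, 27.8 and 23.5 with all 3 interleukins. Every treated library lay below the untreated ones, by a small margin with IL-33. Its changes were -0.37 ± 0.08 (SE, adjusted p = 0.00362) with IL-33+IL-17A, -0.49 ± 0.08 (SE, adjusted p = 3.8e-04) with IL-33+IL-13 and -0.48 ± 0.08 (SE, adjusted p = 4.3e-04) with all 3, whereas with IL-33 alone it was not called (-0.16, adjusted p = 0.23). With high-share libraries only, 1 of them from IL-33+IL-17A, the Stat2 change in that group was -0.20 and not called (adjusted p = 0.262).

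Irf1, an early factor of interferon and NF-kB responses, stood at 29.6, 33 and 30.3 TPM in the untreated libraries, at 34.2, 30.6 and 33.6 with IL-33, at 33.4, 31.9 and 34.8 with IL-33+IL-17A, at 27.5, 30.3 and 27.7 with IL-33+IL-13 and at 27.4, 28.3 and 27 with all 3 interleukins. The untreated, IL-33 and IL-33+IL-17A groups overlapped and lay above the triple combination, and the IL-33+IL-13 libraries overlapped the untreated ones and the triple combination. Against untreated cells only that combination was called (-0.16 ± 0.06 (SE, adjusted p = 0.04)), and under median-ratio scaling the change was -0.03 with an adjusted p of 0.716. Under that scaling and by limma-voom on recovered reads Irf1 was instead called higher with IL-33+IL-17A (0.23 in both, adjusted p = 0.0139 and 0.0233), where it was not called without them (0.11). The call was also lost without untreated replicate 2 or 3 and without any 1 library of the triple combination (adjusted p 0.0524 to 0.156).

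The antiviral effectors held the steepest falls. Of 11 tested, 7, 8, 9 and 9 were lower than in untreated cells with IL-33, IL-33+IL-17A, IL-33+IL-13 and all 3 interleukins, and 1, Ifitm3, was higher in each. Of all tested genes 8.28%, 27.0%, 35.1% and 30.1% were lower in these comparisons and 5.92%, 10.7%, 14.5% and 12.6% higher. Ifit3 (chr19:34583531-34588732), of the family that acts against viral RNA without the marks of a host cap, stood at 9.74, 11.1 and 13.1 TPM in the untreated libraries, at 4.35, 3.23 and 8.35 with IL-33, at 2.99, 3.92 and 3.79 with IL-33+IL-17A, at 1.65, 1.15 and 0.68 with IL-33+IL-13 and at 1.58, 1.65 and 1.11 with all 3 interleukins. Untreated libraries were above all others, IL-33 and IL-33+IL-17A overlapped, and the 6 libraries with IL-13 lay below both. Its group mean was 47% of the untreated mean with IL-33, 31.5% with IL-33+IL-17A, 10.3% with IL-33+IL-13 and 12.8% with all 3. The log2 changes were -1.04 ± 0.25 (SE, adjusted p = 0.0143), -1.43 ± 0.25 (SE, adjusted p = 8.1e-04), -2.53 ± 0.25 (SE, adjusted p = 6.1e-06) and -2.33 ± 0.25 (SE, adjusted p = 9.6e-06). The counts behind them were 4 to 64 reads a library. The call with IL-33 alone was lost without IL-33 replicate 1 or 2 or untreated replicate 3 (adjusted p 0.0593 to 0.0617), in a fit of the 2 compared groups only (0.0856), and in a fit of high-share libraries only (0.0583).

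Ifit1, which neighbours Ifit3 and recognises such RNA, stood at 10.2, 10.8 and 9.54 TPM in the untreated libraries, at 4.61, 4.14 and 7.63 with IL-33, at 5, 6.01 and 4 with IL-33+IL-17A, at 1.69, 1.77 and 2.03 with IL-33+IL-13 and at 1.6, 3.23 and 2.94 with all 3 interleukins. Its order was that of Ifit3, with IL-33 replicate 3 again the highest treated library. The log2 changes from untreated cells were -0.83 ± 0.21 (SE, adjusted p = 0.0178) with IL-33, -0.91 ± 0.21 (SE, adjusted p = 0.00484) with IL-33+IL-17A, -1.98 ± 0.21 (SE, adjusted p = 1.0e-05) with IL-33+IL-13 and -1.67 ± 0.21 (SE, adjusted p = 3.6e-05) with all 3. The Ifit1 call with IL-33 was lost in a fit of the 2 compared groups only (adjusted p = 0.0511), and that with IL-33+IL-17A was lost with the low-share term (-0.68, 0.0593) and with high-share libraries only (-0.90, 0.0645). The third gene of this cluster on chromosome 19, Ifit2, was named after its values were seen because of its value in 1 comparison: it was lower in all 4 treated groups (-0.58, -0.76, -0.59 and -0.64), yet its change from IL-33 to IL-33+IL-13 was -0.01 ± 0.09 (SE, adjusted p = 0.957).

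Rsad2 (chr12:26442746-26456453), which encodes the radical-SAM enzyme viperin, stood at 3.12, 4.72 and 3.57 TPM in the untreated libraries, at 1.28, 1.15 and 1.47 with IL-33, at 1.14, 1.87 and 1.33 with IL-33+IL-17A, at 0.439, 0.498 and 0.516 with IL-33+IL-13 and at 0.266, 0.696 and 0.35 with all 3 interleukins. The untreated libraries were highest, IL-33 and IL-33+IL-17A shared a range, and all 6 libraries with IL-13 lay below them, at up to 0.696 TPM. Its log2 changes from untreated cells were -1.05 ± 0.15 (SE, adjusted p = 4.5e-04), -0.97 ± 0.15 (SE, adjusted p = 3.6e-04), -1.68 ± 0.15 (SE, adjusted p = 2.9e-06) and -1.74 ± 0.15 (SE, adjusted p = 1.5e-06), from 4 to 57 reads a library. Cmpk2, a nucleotide kinase gene next to it on chromosome 12, had changes of -0.74, -0.96, -1.53 and -1.56, each called.

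Ifi44, a widely used interferon signature gene, stood at 17.8, 17.1 and 19.2 TPM in the untreated libraries, at 8.64, 8.6 and 9.98 with IL-33, at 6.08, 5.72 and 6.87 with IL-33+IL-17A, at 3.71, 4.39 and 3.9 with IL-33+IL-13 and at 3.4, 4.06 and 4.13 with all 3 interleukins. Here the groups formed 4 separate steps, from untreated to IL-33 to IL-33+IL-17A to the 2 groups with IL-13, which overlapped. Relative to untreated cells it changed by -0.92 ± 0.09 (SE, adjusted p = 1.0e-05), -1.40 ± 0.09 (SE, adjusted p = 7.6e-08), -1.93 ± 0.09 (SE, adjusted p = 3.4e-09) and -1.97 ± 0.09 (SE, adjusted p = 1.7e-09). Samd9l, a restriction factor of poxviruses, stood at 18.5, 19.8 and 19.7 TPM in the untreated libraries, at 14, 13.8 and 16.9 with IL-33, at 13.2, 9.02 and 8.55 with IL-33+IL-17A, at 7.72, 8.52 and 8.83 with IL-33+IL-13 and at 7.42, 10.5 and 10 with all 3 interleukins. The high-share library of IL-33+IL-17A was at 13.2 TPM and its 2 low-share libraries were at 9.02 and 8.55 TPM, and the part of that share in the result was not tested beyond the fits given below. Its log2 changes were -0.88 ± 0.15 (SE, adjusted p = 6.2e-04) with IL-33+IL-17A, -1.12 ± 0.15 (SE, adjusted p = 6.9e-05) with IL-33+IL-13 and -0.99 ± 0.15 (SE, adjusted p = 1.6e-04) with all 3.

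Ifitm3, which hinders the fusion of virus and endosome, was the highest member per span and went the other way. It stood at 2921, 2729.9 and 2848 TPM in the untreated libraries, at 3587, 3316 and 3737 with IL-33, at 4385, 4435 and 4575 with IL-33+IL-17A, at 3474, 3452 and 3462 with IL-33+IL-13 and at 4181, 4204 and 4213 with all 3 interleukins. Both groups with IL-17A were above every other library, the IL-33+IL-13 libraries lay within the range of IL-33 alone, and the untreated libraries were lowest. Ifitm3 changed by 0.32 ± 0.04 (SE, adjusted p = 1.0e-04), 0.66 ± 0.04 (SE, adjusted p = 5.9e-08), 0.29 ± 0.04 (SE, adjusted p = 8.3e-05) and 0.57 ± 0.04 (SE, adjusted p = 1.5e-07). Bst2, the tether that holds virions at the cell surface, was not called in any comparison with untreated cells and ranged from 191 to 236 TPM. Of the rest, Isg20, an RNA exonuclease, was called lower with IL-33+IL-13 (-0.54) and with all 3 (-0.53) but not with IL-33 (-0.18) or IL-33+IL-17A (-0.16), and Rtp4 was lower in all 4 (-0.47, -0.55, -0.87 and -0.82), although its span holds reads of Masp1 on the other strand.

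The 2 Mx genes, which encode dynamin-like antiviral GTPases, were too low to test. Mx1 had 7 to 8 reads in the untreated libraries (0.438 to 0.571 TPM) and 0 to 4 reads in every treated one. Mx2 had 10 to 23 reads in untreated libraries, 8 to 12 with IL-33, 5 to 10 with IL-33+IL-17A, 5 to 7 with IL-33+IL-13 and 1 to 6 with all 3. Untreated cells thus held the highest counts of both, with Mx2 overlapping the IL-33 group. These ranges carry no test.

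**Figure D3:**
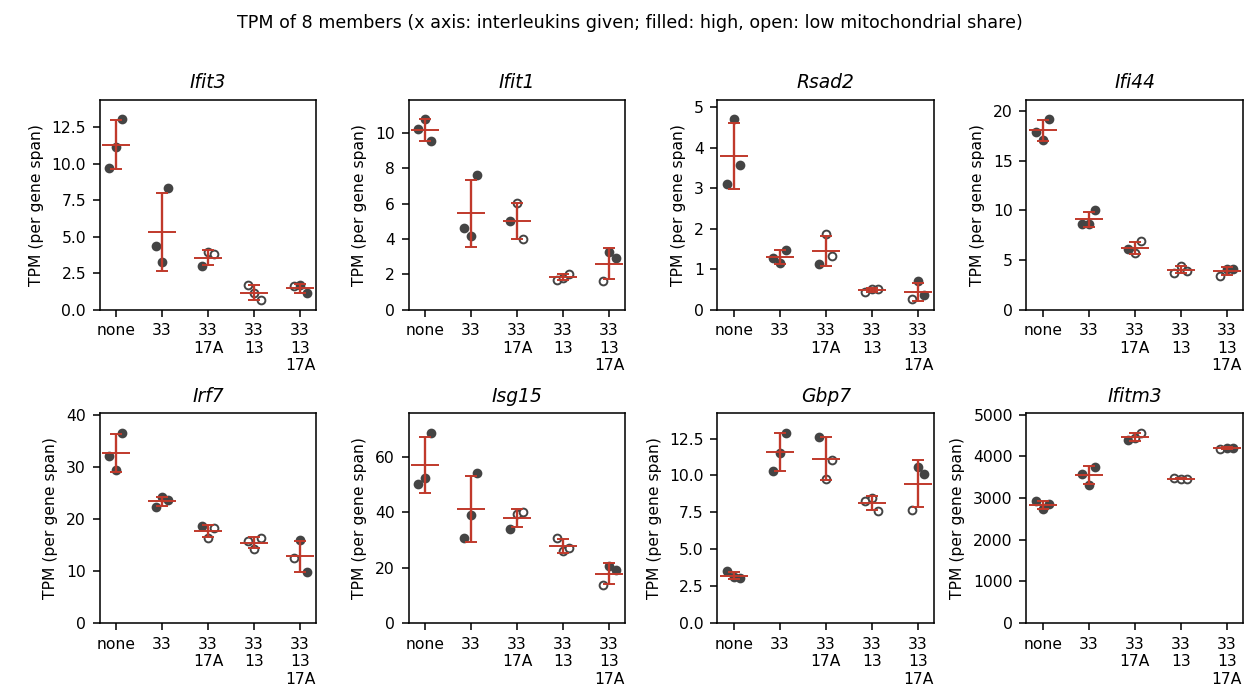
TPM of 8 members by interleukins given (1 point per library, filled for the high and open for the low mitochondrial share; red bars are mean and SD of 3 libraries). Ifit3, Ifit1, Rsad2 and Ifi44 are highest in untreated cells and lowest in the 2 groups with IL-13, Irf7 and Isg15 have their lowest mean in the triple combination, and Gbp7 and Ifitm3 are lowest in untreated cells.

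Among the RNA and DNA sensors, 3 of 11 were lower with IL-33, 9 with IL-33+IL-17A, 10 with IL-33+IL-13 and 9 with all 3, and none was higher. The shares of all tested genes called lower were 8.28%, 27.0%, 35.1% and 30.1%, in the same order. Oas3 (chr5:120753098-120777662), which makes the 2-5A messenger that activates RNase L, stood at 5.58, 5.31 and 6.14 TPM in the untreated libraries, at 1.55, 2.86 and 2.76 with IL-33, at 1.74, 1.73 and 1.93 with IL-33+IL-17A, at 1.65, 1.6 and 1.84 with IL-33+IL-13 and at 1.56, 2.29 and 1.13 with all 3 interleukins. All treated libraries lay below the untreated ones and overlapped one another. The log2 changes were -1.0 ± 0.17 (SE, adjusted p = 0.00119), -1.25 ± 0.17 (SE, adjusted p = 8.7e-05), -1.31 ± 0.17 (SE, adjusted p = 4.8e-05) and -1.35 ± 0.17 (SE, adjusted p = 3.1e-05), and from IL-33 to IL-33+IL-13 the change was -0.31 (adjusted p = 0.172). Oasl2, an OAS-like gene of a second cluster on chromosome 5, stood at 8.44, 8.75 and 12.4 TPM in the untreated libraries, at 4.77, 5.35 and 8.12 with IL-33, at 5.72, 3.59 and 4.92 with IL-33+IL-17A, at 2.53, 2.62 and 2.89 with IL-33+IL-13 and at 2.27, 3.49 and 2.51 with all 3 interleukins. There the 6 libraries with IL-13 lay below all others. Its changes were -0.63 (adjusted p = 0.0542, not called) with IL-33, -0.92 ± 0.20 (SE, adjusted p = 0.0033) with IL-33+IL-17A, -1.54 ± 0.20 (SE, adjusted p = 5.4e-05) with IL-33+IL-13 and -1.53 ± 0.20 (SE, adjusted p = 5.0e-05) with all 3.

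Ifih1, which encodes the long double-stranded RNA sensor MDA5, changed by -0.48, -0.69 and -0.50 in the 3 combinations, and Eif2ak2, the RNA-activated kinase PKR, by -0.42, -0.51 and -0.43, each called. With high-share libraries only, 1 of them from IL-33+IL-17A, the changes in that group were -0.31 for Ifih1 and -0.23 for Eif2ak2. That fit did not keep these calls. With the low-share term the changes in that group were -0.325 for Ifih1 and -0.28 for Eif2ak2, each called. Dhx58, the regulatory relative LGP2, was called in all 4 comparisons (-0.26, -0.46, -0.34 and -0.47), the first lost under median-ratio scaling and by limma-voom on recovered reads, and the third by limma-voom; its antisense partner Dhx58os overlaps it. Zbp1, a sensor of Z-form nucleic acid that can start necroptosis, was not called against untreated cells, with changes from -0.14 to 0.05.

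Within the ISG15, ubiquitin and ADP-ribosylation genes, 1, 5, 6 and 7 of 7 were lower in the 4 comparisons and none was higher. Beside them 8.28%, 27.0%, 35.1% and 30.1% of all tested genes were lower. Isg15 (chr4:156199455-156200797), the ubiquitin-like modifier, stood at 50.3, 52.4 and 68.9 TPM in the untreated libraries, at 30.7, 39.1 and 54.2 with IL-33, at 34.1, 39.6 and 40.3 with IL-33+IL-17A, at 30.8, 26.1 and 27 with IL-33+IL-13 and at 13.6, 20.6 and 19.3 with all 3 interleukins. The IL-33 libraries overlapped the untreated ones, the IL-33+IL-13 libraries lay below those of untreated cells and IL-33+IL-17A and reached just into the range of IL-33, and the triple combination lay below every other library. Its log2 changes from untreated cells were -0.48 (adjusted p = 0.139, not called), -0.57 ± 0.20 (SE, adjusted p = 0.0404), -1.0 ± 0.20 (SE, adjusted p = 0.00138) and -1.63 ± 0.20 (SE, adjusted p = 2.9e-05), the second lost under median-ratio scaling. With the low-share term the Isg15 calls with IL-33+IL-17A (-0.47, adjusted p = 0.207) and IL-33+IL-13 (-0.85, 0.0577) were both lost. From IL-33+IL-13 to the triple combination Isg15 had a change of -0.64 ± 0.20 (SE, adjusted p = 0.0751), not called, and from IL-33+IL-17A to it -1.07 ± 0.20 (SE, adjusted p = 0.00311). Usp18, the protease that removes ISG15 and also dampens the type I receptor, was called with IL-33+IL-13 (-0.50, lost with the low-share term at an adjusted p of 0.0819) and with all 3 (-0.54). The neighbouring ADP-ribosyltransferase genes Parp9 and Parp14 on chromosome 16 changed by -0.56 and -0.82 with IL-33+IL-13, both called.

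The interferon-inducible GTPases, which attack the vacuoles of intracellular pathogens, split in direction. Against untreated cells 3 of 6 tested were higher and none lower with IL-33, 2 higher and 2 lower with IL-33+IL-17A, 1 higher and 4 lower with IL-33+IL-13, and 2 higher and 4 lower with all 3. In the same comparisons 5.92%, 10.7%, 14.5% and 12.6% of all tested genes were higher, and 8.28%, 27.0%, 35.1% and 30.1% lower. Gbp7 (chr3:142530342-142550150), a guanylate-binding protein gene, stood at 3.5, 3.1 and 3.03 TPM in the untreated libraries, at 10.3, 11.5 and 12.9 with IL-33, at 12.6, 9.75 and 11.1 with IL-33+IL-17A, at 8.3, 8.48 and 7.57 with IL-33+IL-13 and at 7.66, 10.6 and 10.1 with all 3 interleukins. Every treated library was above every untreated one, and the IL-33+IL-13 libraries were the lowest of the treated groups apart from 1 library of the triple combination. The log2 changes were 1.58 ± 0.12 (SE, adjusted p = 1.4e-06), 1.52 ± 0.12 (SE, adjusted p = 6.7e-07), 1.11 ± 0.12 (SE, adjusted p = 1.1e-05) and 1.30 ± 0.12 (SE, adjusted p = 2.0e-06).

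Gbp2, in the same cluster on chromosome 3, stood at 12.7, 12.6 and 13.6 TPM in the untreated libraries, at 18.7, 18.7 and 19.2 with IL-33, at 15.1, 13.7 and 13.8 with IL-33+IL-17A, at 10.4, 8.23 and 8.73 with IL-33+IL-13 and at 7.6, 8 and 7.22 with all 3 interleukins. It was highest with IL-33, near the untreated level with IL-33+IL-17A and below it with IL-13, with no overlap between these levels. Its log2 change was 0.51 ± 0.07 (SE, adjusted p = 3.5e-04) with IL-33, 0.13 (adjusted p = 0.19, not called) with IL-33+IL-17A, -0.47 ± 0.07 (SE, adjusted p = 2.2e-04) with IL-33+IL-13 and -0.70 ± 0.07 (SE, adjusted p = 6.6e-06) with all 3. Under median-ratio scaling and by limma-voom on recovered reads Gbp2 was called higher with IL-33+IL-17A (0.24 in both, adjusted p = 0.0168 and 0.0231). Its neighbours Gbp3 and Gbp5, were named after their values were seen. Gbp3 was not called with IL-33 (0.11) and was lower with IL-33+IL-13 (-0.70 ± 0.08 (SE, adjusted p = 1.5e-05)). Gbp5, which rests on 7 to 46 reads a library, was higher with IL-33 (0.53 ± 0.15 (SE, adjusted p = 0.0313)) and not called with IL-33+IL-13 (0.17). The Gbp5 call with IL-33 was lost in a limma fit of the compared groups only (adjusted p = 0.107) and with high-share libraries only. All 4 Gbp promoters in this cluster hold an ISRE core. Overlapping and closely related genes share reads in ways the sources used here do not settle, and 5 of the 15 recovered values of Gbp7, whose span holds Gm43802 on the same strand, were not whole.

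Irgm1, a regulator of the immunity-related GTPases, stood at 67.3, 68.2 and 73.8 TPM in the untreated libraries, at 56.2, 56.5 and 65.3 with IL-33, at 50.3, 44.2 and 43.4 with IL-33+IL-17A, at 37.7, 37.7 and 37.5 with IL-33+IL-13 and at 29.3, 37.1 and 36.8 with all 3 interleukins. Untreated, IL-33 and IL-33+IL-17A libraries formed 3 separate steps, and the groups with IL-13 lay under all of them. Against untreated cells the changes were -0.23 (adjusted p = 0.117, not called), -0.59 ± 0.09 (SE, adjusted p = 2.6e-04), -0.87 ± 0.09 (SE, adjusted p = 8.4e-06) and -1.0 ± 0.09 (SE, adjusted p = 1.8e-06). Igtp, whose span overlaps Irgm2, changed by -0.75 with IL-33+IL-13, called, though not with the low-share term (-0.69, adjusted p = 0.0638). Iigp1 had 6 to 18 reads in any library and was not tested. In the last group, Xaf1, a pro-apoptotic gene, was lower in all 4 comparisons (-0.72, -0.83, -1.46 and -1.44), and Ifi35 too (-0.39, -0.35, -0.43 and -0.55, the second lost under median-ratio scaling and by limma-voom). The Xaf1 call with IL-33+IL-17A was lost with the low-share term (-0.51, adjusted p = 0.0725). Ifi27 was called with all 3 interleukins (-0.56) and not in the other 3 comparisons, although with the low-share term its change with IL-33+IL-13 was -0.65 and called (adjusted p = 0.0091), against -0.30 without it.

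Many members were lower with IL-33+IL-13 than with IL-33. Against IL-33 alone 26 of 42 members were lower and none higher, beside 22.4% lower of all tested genes and 1395 of 13887 higher, and the median was -0.40 beside -0.08. All 42 differences were below 0, 8 of them not under median-ratio scaling, which called 23 members lower beside 14.8% of all tested genes, with 16.6% higher. The largest were those of Ifit3 (-1.49 ± 0.25 (SE, adjusted p = 0.00108)), Ifit1 (-1.15 ± 0.21 (SE, adjusted p = 0.00171)), Ifi44 (-1.01 ± 0.09 (SE, adjusted p = 5.3e-06)), Gbp2 (-0.98 ± 0.07 (SE, adjusted p = 1.4e-06)) and Oasl2 (-0.92 ± 0.20 (SE, adjusted p = 0.0048)). All 4 transcription factors were called, at -0.57 for Irf7, -0.35 for Irf9, -0.33 for Stat2 and -0.20 for Irf1, although Irf1 was not called under median-ratio scaling (adjusted p = 0.21) or without IL-33 replicate 1 or 3 or IL-33+IL-13 replicate 1 or 3 (0.0714 to 0.0797).

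This comparison set 3 low-share libraries against 3 high-share ones. With a term for the low mitochondrial share, estimated from the 2 groups with libraries on both sides, 6 members were lower and none higher, beside 5.48% and 4.75% of all tested genes (10.2% in either direction), and the median was -0.25. The 6 were Ifit3 (-1.69), Ifi44 (-0.93), Gbp2 (-0.91), Gbp3 (-0.81), Irgm1 (-0.38) and Parp9 (-0.38). Among the members named above, Ifit1 (-0.82, adjusted p = 0.104), Oasl2 (-0.59, 0.217), Irf7 (-0.52, 0.131), Irf9 (-0.25, 0.126), Stat2 (-0.18, 0.351) and Irf1 (-0.19, 0.211) had a negative change and lost the call. The median standard error was 0.11 without the term and 0.14 with it. The plot of both fits shows this for each member.

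**Figure D4:**
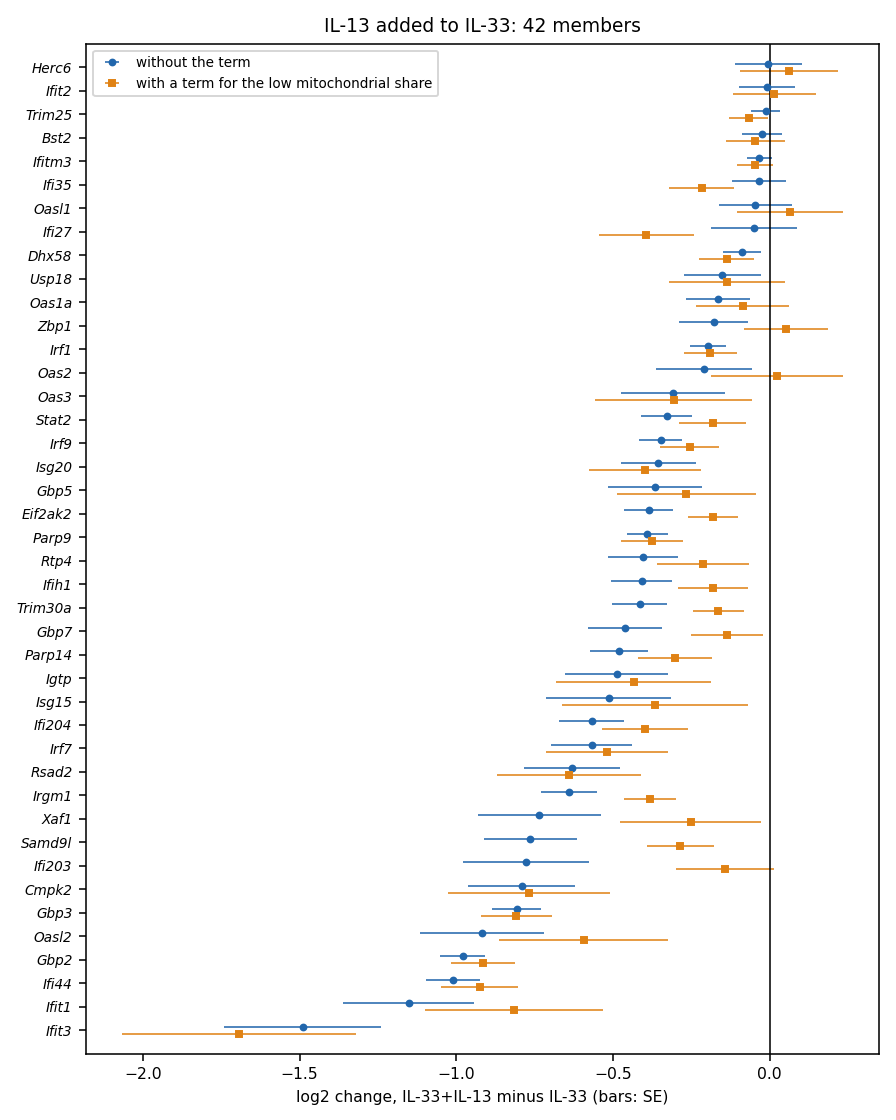
Log2 change from IL-33 to IL-33+IL-13 for the 42 tested members (1 row each; bars are standard errors), without (circles) and with (squares) a term for the low mitochondrial share. All 42 circles lie below 0, as do 37 of the squares. Gbp3 (-0.81 in both fits), Rsad2 (-0.63 and -0.64) and Irf7 (-0.57 and -0.52) differ little between the fits. Xaf1 (-0.73 and -0.25) and Ifi203 (-0.78 and -0.14) are nearer 0 with the term, and Ifit3 (-1.49 and -1.69) is further from it.

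With IL-17A, 7 members were called when it was added to IL-33. When it was added to IL-33, 6 of 42 members were lower and 1 higher, beside 6.22% and 3.54% of all tested genes, with a median of -0.17 beside -0.05. The lower ones included Samd9l (-0.52 ± 0.15 (SE, adjusted p = 0.0466)), Ifi44 (-0.48 ± 0.09 (SE, adjusted p = 0.00335)), Gbp2 (-0.39 ± 0.07 (SE, adjusted p = 0.00451)), Irgm1 (-0.36 ± 0.09 (SE, adjusted p = 0.0239)) and Irf9 (-0.29 ± 0.07 (SE, adjusted p = 0.0184)), and Ifitm3 was higher (0.33 ± 0.04 (SE, adjusted p = 1.5e-04)). With the term for the low share the calls were Ifi44 (-0.42), Gbp2 (-0.34) and Ifitm3 (0.32), and among high-share libraries, with 1 left in the IL-33+IL-17A group, none was called (all tested genes in either direction: 6.01% and 2.28%). Leaving out 1 library at a time gave 3 to 12 calls, with 3 without IL-33 replicate 3 or without IL-33+IL-17A replicate 2, 4 without IL-33+IL-17A replicate 3 and 12 without IL-33+IL-17A replicate 1, the group's high-share library. The call of Samd9l was lost without any 1 library other than IL-33+IL-17A replicate 1 (adjusted p 0.076 to 0.193), and its change was -0.20 with the term (0.306). That of Irgm1 was lost without IL-33 replicate 3 or IL-33+IL-17A replicate 2 or 3 (0.0937 to 0.103), and that of Irf9 without IL-33 replicate 1 or 3 or IL-33+IL-17A replicate 2 (0.0518 to 0.087).

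When IL-17A was added to IL-33+IL-13, 1 of 42 members was higher, Ifitm3 (0.28 ± 0.04 (SE, adjusted p = 9.5e-04)), and none was lower, beside 3.4% and 4.05% of all tested genes. The members' median was 0.00 beside 0.01. Ifitm3 was thus higher with IL-17A both with and without IL-13, and its difference between the 2 settings, the interaction, was -0.06 with an adjusted p of 0.54. Median-ratio scaling called Gbp2 and Isg15 in addition (8.39% of all tested genes in either direction), and the low-share term called Irgm1 (-0.31) in addition (4.08%).

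When IL-13 was added to IL-33+IL-17A, 12 of 42 members were lower and none higher, beside 9.14% and 6.7% of all tested genes, with a median of -0.19 beside -0.02. The largest were Isg15 (-1.07 ± 0.20 (SE, adjusted p = 0.00311)), Ifit3 (-0.90 ± 0.25 (SE, adjusted p = 0.0284)), Gbp2 (-0.82 ± 0.07 (SE, adjusted p = 9.3e-06)), Rsad2 (-0.77 ± 0.15 (SE, adjusted p = 0.00469)) and Ifit1 (-0.76 ± 0.21 (SE, adjusted p = 0.0267)). Irf7 (-0.46) and Irf1 (-0.27) were called too, whereas Irf9 (-0.18) and Stat2 (-0.11) were not. Here libraries of both shares stood on both sides. With the low-share term 16 members were lower and none higher, beside 10.8% and 6.79% of all tested genes, and with high-share libraries alone, 1 of them from IL-33+IL-17A, 3 were lower, beside 3.64%. Ifit3 lost its call with the term (-0.83, adjusted p = 0.0566); Isg15, Ifit3, Rsad2, Ifit1, Irf7 and Irf1 lost theirs with high-share libraries alone (0.144 to 0.365), and Rsad2, Ifit1 and Irf7 in the fit of the compared groups only (0.0681 to 0.168). The call of Ifit3 was lost without replicate 2 or 3 of either group, that of Ifit1 without IL-33+IL-17A replicate 1 or 2 or triple replicate 1, and that of Irf7 without replicate 1 or 3 of either group (adjusted p 0.0549 to 0.106).

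No member was called in the interaction, the effect of IL-17A in the presence of IL-13 minus its effect without it, in which 0.338% of all tested genes were called. At an unadjusted p under 0.05 there were 10 members. Limma-voom on the recovered reads called 3, Eif2ak2 (0.33, adjusted p = 0.038), Samd9l (0.65, 0.0335) and Ifi27 (-0.59, 0.0443), where it called 10.9% of all tested genes. Without IL-33+IL-17A replicate 1 limma called 8 members, and without replicate 1 of the triple combination 7. The mitochondrial share of each of these libraries differs from the other 2 of its group. The counts of 10, 8 and 7 have no share of all tested genes beside them. They are not read as a result about the members. With the low-share term limma called none, beside 0.0144% of all tested genes.

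Upstream and downstream genes of interferon signalling were read from a list of 45 further genes, of which 35 had a value and 34 were tested. The 10 interferon genes on that list, Ifnb1 and Ifng among them, are not analysed here. In the 4 comparisons with untreated cells 6, 7, 8 and 8 of the 34 were higher and 4, 12, 15 and 13 lower, beside 5.92%, 10.7%, 14.5% and 12.6% of all tested genes higher and 8.28%, 27.0%, 35.1% and 30.1% lower. Of the receptors, Ifnar1, a chain of the type I receptor, stood at 72.5, 70.1 and 78 TPM in the untreated libraries, at 77.9, 78.4 and 86.5 with IL-33, at 83.2, 73.5 and 72.7 with IL-33+IL-17A, at 68.5, 69.1 and 68.8 with IL-33+IL-13 and at 71.2, 77.8 and 83.3 with all 3 interleukins. The IL-33+IL-13 libraries were the lowest and the other groups overlapped, and it was not called in any of these comparisons, with changes from -0.09 to 0.14. Ifnar2, the other type I chain, stood at 42.2, 43.9 and 42.1 TPM in the untreated libraries, at 50.3, 50.1 and 50.9 with IL-33, at 60.8, 54.1 and 55.2 with IL-33+IL-17A, at 46.1, 46 and 47.5 with IL-33+IL-13 and at 51, 54.7 and 54.1 with all 3 interleukins. All treated libraries were above the untreated ones, and it was called in all 4 comparisons (0.23, 0.40, 0.12 and 0.31). The ligand-binding type II chain Ifngr1 stood at 47.7, 47.8 and 45.5 TPM in the untreated libraries, at 43.9, 42.7 and 46.3 with IL-33, at 44.8, 37.8 and 40.7 with IL-33+IL-17A, at 38.8, 39.6 and 37.1 with IL-33+IL-13 and at 37.7, 39.9 and 39.8 with all 3 interleukins. All libraries with IL-17A or IL-13 lay below the untreated ones, with changes of -0.19 ± 0.06 (SE, adjusted p = 0.0185) with IL-33+IL-17A, -0.28 ± 0.06 (SE, adjusted p = 0.00144) with IL-33+IL-13 and -0.26 ± 0.06 (SE, adjusted p = 0.00277) with all 3. Its partner Ifngr2 stood at 71.9, 67 and 72.2 TPM in the untreated libraries, at 81.2, 80 and 81.9 with IL-33, at 93.2, 84.5 and 86 with IL-33+IL-17A, at 95.9, 97.5 and 98.7 with IL-33+IL-13 and at 115, 112 and 115 with all 3 interleukins. Every treated library was above the untreated ones, the triple combination was above all others, and the changes were 0.20, 0.32, 0.46 and 0.68, each called.

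The inhibitor Socs1, which blocks JAK kinases at the interferon receptors, stood at 28.3, 26.1 and 18.1 TPM in the untreated libraries, at 46.5, 36 and 32.5 with IL-33, at 46, 57.5 and 49.8 with IL-33+IL-17A, at 92.1, 111 and 112 with IL-33+IL-13 and at 102, 89.1 and 86.4 with all 3 interleukins. All treated libraries were above the untreated ones, and those with IL-13 were above all others. Its changes were 0.65 ± 0.17 (SE, adjusted p = 0.0191), 1.07 ± 0.17 (SE, adjusted p = 3.2e-04), 2.09 ± 0.17 (SE, adjusted p = 8.4e-07) and 1.91 ± 0.17 (SE, adjusted p = 1.4e-06). Socs3, the related inhibitor of gp130 signalling, stood at 242, 242 and 204 TPM in the untreated libraries, at 415, 427 and 388 with IL-33, at 528, 554 and 573 with IL-33+IL-17A, at 824, 858 and 803 with IL-33+IL-13 and at 967, 858 and 831 with all 3 interleukins. Its treated groups were likewise all above untreated cells, with IL-13 highest. It rose by 0.84, 1.27, 1.85 and 1.95, each called. Ptpn2, a phosphatase that restrains JAK signalling, stood at 4.76, 4.76 and 4.86 TPM in the untreated libraries, at 5.08, 5.15 and 5.4 with IL-33, at 7.43, 7.14 and 6.58 with IL-33+IL-17A, at 7.61, 6.97 and 7.08 with IL-33+IL-13 and at 9.9, 10.4 and 10.8 with all 3 interleukins. The triple combination was above all other libraries and changed by 0.97 ± 0.05 (SE, adjusted p = 1.4e-08).

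Changes in both directions were seen among genes that start interferon production. Tlr9, an endosomal DNA sensor, stood at 9.5, 10.3 and 14.4 TPM in the untreated libraries, at 4.08, 4.9 and 4.72 with IL-33, at 5.9, 3.72 and 4.26 with IL-33+IL-17A, at 1, 1.39 and 1.44 with IL-33+IL-13 and at 2.13, 1.11 and 1.12 with all 3 interleukins. Its order was that of Ifit3, highest in untreated cells and lowest in the 6 libraries with IL-13. The changes were -1.14 ± 0.19 (SE, adjusted p = 0.00123), -1.14 ± 0.19 (SE, adjusted p = 5.4e-04), -2.43 ± 0.19 (SE, adjusted p = 7.0e-07) and -2.34 ± 0.19 (SE, adjusted p = 6.9e-07). Tlr7, the RNA sensor of the same compartment, stood at 63.3, 61.6 and 71.6 TPM in the untreated libraries, at 46.8, 44.2 and 54.6 with IL-33, at 49.6, 38.6 and 40.7 with IL-33+IL-17A, at 34.5, 31 and 34.5 with IL-33+IL-13 and at 33.8, 41.2 and 43.7 with all 3 interleukins. All treated libraries lay below the untreated ones. It changed by -0.43, -0.60, -0.95 and -0.72, each called. Ikbke, a kinase that activates IRF3 and IRF7, stood at 16, 18.4 and 16.5 TPM in the untreated libraries, at 23.6, 26.1 and 25.7 with IL-33, at 30.4, 28.6 and 30.1 with IL-33+IL-17A, at 25.5, 25.3 and 27.3 with IL-33+IL-13 and at 26.8, 29.4 and 28.2 with all 3 interleukins. All treated libraries lay above the untreated ones, and it was called in all 4 comparisons (0.54, 0.77, 0.59 and 0.70).

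**Figure D5:**
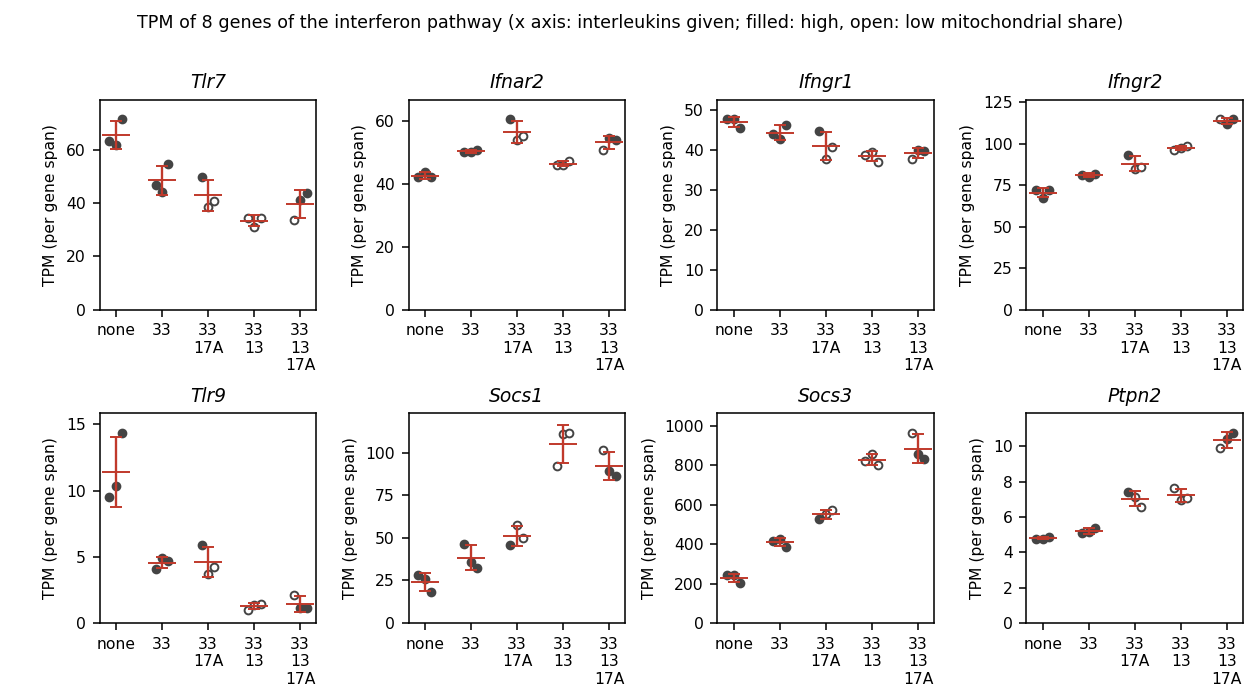
TPM of 8 genes of interferon signalling by interleukins given (1 point per library, filled for the high and open for the low mitochondrial share; red bars are mean and SD of 3 libraries). Socs1 and Socs3 are lowest in untreated cells and highest in the 2 groups with IL-13, and Tlr9 shows the opposite order.

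Macrophage markers changed in both directions, with medians below 0, as were those of all tested genes. Of the 14, 2, 7, 8 and 8 were lower and 3, 3, 4 and 3 higher in the 4 comparisons with untreated cells, with medians of -0.07, -0.07, -0.17 and -0.21, beside the shares of all tested genes given above. From IL-33 to IL-33+IL-13, 6 of the 14 were lower and 2 higher, with a median of -0.11. The lower ones were Fcgr1 (-0.68), an IgG receptor gene, Ptprc (-0.56), Fcer1g (-0.37), Csf1r (-0.28), Lyz2 (-0.13) and C1qb (-0.11), and the higher ones Mrc1 (0.84), the mannose receptor gene, and Adgre1 (0.29). Of the 10 fibroblast markers 5, 6, 8 and 8 were lower and 2, 2, 1 and 2 higher against untreated cells. The shares of all tested genes given above for these 4 comparisons stand beside these counts as well.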

How the data were processed

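RNA-seq of 15 libraries was analysed, 3 in each of 5 groups. The authors deposited TPM per gene, in files that name each gene with its coordinates and length. Reads were aligned with HISAT2 to mm10, per the submitters' processing notes; the counting program, strand setting, treatment of multi-mapping reads and versions are not given in sources used here. The deposited length is the gene's span, and TPM times span over the value of 1 read was used to recover reads.

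Genes that reached 1 TPM in 3 or more libraries (13887 of 18078) were fitted with limma 3.58.1 in R 4.3.3, with trend and robust options, on log2(TPM + 1) with a pseudocount of 1, 1 mean per group and all 15 libraries. Benjamini-Hochberg adjustment ran over all 13887 genes and genes were called at an adjusted p under 0.05 in 9 comparisons. The script was tested on simulated data.

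The members and lists were chosen with earlier results of these data known. Values per library were printed for the 4 transcription factors, for the 5 called members with the largest change in each pairwise comparison, and for pathway genes chosen likewise, 1 of which is not reported here; further members were named after their values were seen. Alternatives were a pseudocount of 0.1, no filter, median-ratio scaling, plain limma, compared groups only, a term for the low mitochondrial share, high-share libraries only and leaving out each library; limma-voom on recovered reads was added after seeing the data. Promoter windows came from RefSeq tables of GRCm38.p6. Precision is limited by 3 libraries a group and by read counts, which were under 20 in some library for 11 members.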

Additional observations from a re-analysis of the deposited data

How the results depend on the processing

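Refits were counted for 55 calls, those of the 4 transcription factors and of up to 5 members with the largest change in each pairwise comparison. Of 752 refits 670 kept the call and 82 lost it (39 of them with 1 library left out), with no reversal. Other calls given above are not in these counts. The number of members called moved by over 1.5 times in these cases, and the cause was not tested. With high-share libraries alone, 13 members were called with IL-33+IL-17A against untreated cells, 0 against IL-33, and 3 when IL-13 was added to IL-33+IL-17A. With compared groups only, 4 were called with IL-17A added to IL-33 and 6 with IL-13 added to IL-33+IL-17A. With the low-share term, 3 were called with IL-17A added to IL-33, 6 with IL-13 added to IL-33 and 2 with IL-17A added to IL-33+IL-13, the last being 3 under median-ratio scaling. Limma-voom, chosen after seeing the data, called 3 in the interaction. Leaving out 1 library gave 3 to 12 calls for IL-17A added to IL-33 and 0 to 8 in the interaction. The ranges were 13 to 22, 28 to 31, 35 to 36 and 34 to 37 against untreated cells for IL-33, IL-33+IL-17A, IL-33+IL-13 and all 3, 20 to 26 for IL-13 added to IL-33 and 8 to 14 for IL-13 added to IL-33+IL-17A. No share of all tested genes is set beside these leave-one-out counts or beside the counts with compared groups only. Neither set of counts is read as a result about the members. No paired analysis was possible because the labels give no replicate numbers that pair libraries. In all, 11 members had under 20 reads in at least 1 library, and changes in these rest on few reads.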
